A study of Saccharomyces cerevisiae with 8 samples.

Results

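The 8 genes described here encode the enzymes of upper glycolysis in the budding yeast Saccharomyces cerevisiae, from the hexose kinases to triosephosphate isomerase: HXK1 (YFR053C), HXK2 (YGL253W), GLK1 (YCL040W), PGI1 (YBR196C), PFK1 (YGR240C), PFK2 (YMR205C), FBA1 (YKL060C) and TPI1 (YDR050C). They were taken by name from the annotation of the array; each had 1 probe set, and all 8 were among the 5449 yeast genes tested. Transcripts were measured in total RNA on 8 Affymetrix yeast expression arrays in 4 groups of 2. One group was labelled parental BY4742, a laboratory strain, and the others were evolved strains 1, 2 and 3, each an isolate taken after approximately 450 generations in high glucose. All groups carry the same culture description in the labels: complete medium with 2% glucose and 0.5% ammonium sulfate, 100 ml at 30 °C with aeration, passed daily for a month by transfer of 10 µl. Each evolved strain is a single isolate, and the sources used here do not give the growth phase at harvest.

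Upper glycolysis phosphorylates glucose, converts it to fructose bisphosphate and cleaves that into triose phosphates, spending ATP before the later steps of the pathway regain it. Yeast has 3 glucose-phosphorylating enzymes. HXK2 is the main hexokinase during growth on glucose and also takes part in glucose repression, whereas HXK1 and GLK1 are known as genes repressed by glucose. Phosphofructokinase is built from the products of PFK1 (alpha subunit) and PFK2 (beta subunit), so that its genes are subunits of 1 enzyme rather than alternatives.

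Levels are given as log2 of the deposited intensity, with the standard deviation (SD) over the arrays of a group. Across the 5449 genes the arrays of each evolved strain correlated at r = 0.9993 to 0.9994 and the arrays labelled parental at r = 0.9972, while parental and evolved arrays correlated at 0.912 to 0.923; genes are not independent replicates. The strain label was not borne out by its markers. BY4742 lacks LYS2 and carries MET17, but LYS2 was above background on 8 of 8 arrays and MET17 on 2, and the arrays labelled parental had high levels of genes of the opposite mating type, such as MFA1 at 12.36 ± 0.0042 (SD, n = 2) against 10.47 ± 0.22 (SD, n = 6) in the evolved arrays. Of 7 such a-specific genes 6 were called lower in the mean of the evolved strains (test given below), against 43.4% of all genes. The exception, STE6, stood at 8.59 on the arrays labelled parental and 8.91 on the evolved ones. Of 4 alpha-specific genes 3 were called higher in that mean, against 43.3% of all genes, and SAG1 was called lower. In the same order of groups, MF(ALPHA)1 stood at 4.08 and 5.52, MF(ALPHA)2 at 4.88 and 5.51, STE3 at 7.11 and 7.59, and SAG1 at 7.93 and 7.75. Of the other genes that BY4742 lacks, URA3 was at background on all 8 arrays, and LEU2 and HIS3, of which the HIS3 deletion is partial, were above it on 8 of 8. Whether the arrays labelled parental hold the ancestor of the evolved isolates cannot be told apart from a change during the passages, so the group is called "labelled parental" here. The titles name the arrays of a group biological replicates without saying whether they were separate cultures, so the p-values cover only array-to-array spread, which may be technical. The values compare shares of total RNA, from which a change in RNA per cell cannot be told apart.

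All 8 upper glycolysis genes were higher in the evolved strains, on average by between 1.34-fold (GLK1) and 3.09-fold (PGI1). Each was called higher in each of the 3 strains, where 40.6%, 42.5% and 43% of all genes were called higher in strains 1, 2 and 3, and for each the 6 evolved arrays lay above both arrays labelled parental. In the test used (limma, Benjamini-Hochberg adjustment over all genes, called at an adjusted p under 0.05), 43.3% of all genes were called higher in the mean of the evolved strains, 35.2% were called higher in each strain, and 38.2% had all evolved arrays above both others. The median log2 difference of the 8 genes was 0.82, against -0.0056 over all genes tested. In the mean of the evolved strains PGI1, HXK2, HXK1 and PFK2 rose by at least 2-fold, as did 10.9% of all genes. TPI1, PFK1, FBA1 and GLK1 rose by less, and in strain 1 alone PFK2 rose by less too, 1.73-fold. The mean rises formed an upper and a lower group of 4, with log2 differences from 1.06 to 1.63 and from 0.42 to 0.58. In a fit that let arrays of a strain correlate (limma, strain as a random block), 7 of the 8 calls held. In that fit 28.2% of all genes were called higher, and the call of PFK1 was lost at adjusted p = 0.0593. It used 1 correlation for all genes, 0.854, and arrays stayed the observations. A test with strain as the unit was thus not made. The group labelled parental is 1 strain, so the spread between strains in that fit comes from the evolved strains alone.

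**Figure D1:**
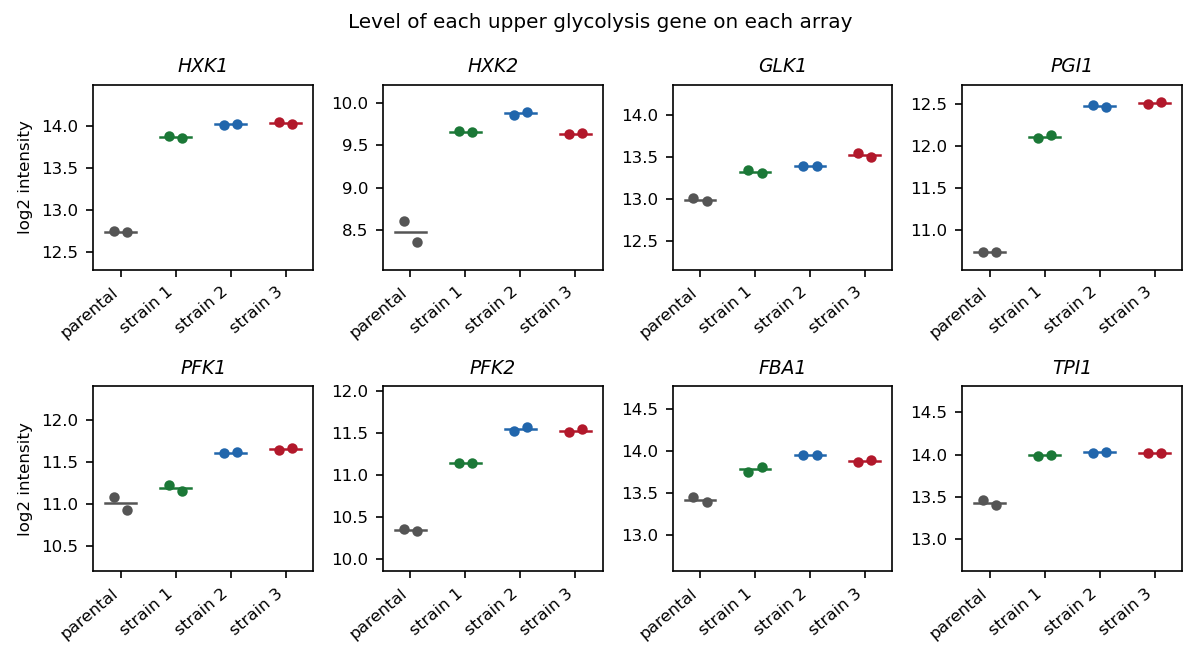
Log2 intensity of each gene (vertical axes of equal length) on the 2 arrays of each group (points) with the group mean (line). In every panel the 6 evolved arrays lie above both arrays labelled parental, most closely in PFK1, where the higher parental array stands at 11.08 and the lower array of strain 1 at 11.16.

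HXK1, a hexokinase, stood at 12.75 and 12.73 on the arrays labelled parental, at 13.88 and 13.86 in evolved strain 1, at 14.01 and 14.02 in strain 2, and at 14.05 and 14.02 in strain 3. The groups were tight and did not overlap, and strains 2 and 3 shared the upper position. The mean rise was 1.23 ± 0.02 (log2, standard error, SE; 2 against 6 arrays), or 2.35-fold, with an adjusted p of 1.79e-08 (limma). HXK2, the other hexokinase, stood at 8.60 and 8.35 on the arrays labelled parental, at 9.67 and 9.66 in strain 1, at 9.86 and 9.90 in strain 2, and at 9.64 in both arrays of strain 3. Its arrays labelled parental lay 0.249 apart, the widest gap of any of the 8 genes, yet both stayed below every evolved array. It rose by 1.25 ± 0.06 (log2, SE), or 2.39-fold (adjusted p = 1.22e-06, limma), and was highest in strain 2.

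GLK1, the glucokinase, changed least of the 8 genes. It stood at 13.01 and 12.97 on the arrays labelled parental, at 13.34 and 13.31 in strain 1, at 13.39 on both arrays of strain 2, and at 13.55 and 13.49 in strain 3. Its rise of 0.42 ± 0.03 (log2, SE), or 1.34-fold, had an adjusted p of 5.72e-06 (limma), and 27.9% of all genes had a larger difference. Strain 3 was the highest for GLK1, without overlap with the others. EMI2, a paralogue of GLK1, rose by 0.46 ± 0.03 (log2, SE; adjusted p = 7.91e-06, limma).

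The kinase genes were also compared within each array. A ratio of 2 genes on 1 array shows whether their signals changed unequally, without setting one level against the other. The log2 ratio of GLK1 to HXK1 was 0.26 and 0.24 on the arrays labelled parental and lay between -0.63 and -0.50 on the 6 evolved arrays. The mean difference of this ratio was -0.81, a 1.75-fold loss of GLK1 signal relative to HXK1, and the group ranges were far apart. The ratio of GLK1 to HXK2 moved in the same way, by -0.83, with differences from -1.01 in strain 2 to -0.63 in strain 3. The ratio of HXK1 to HXK2 was 4.15 and 4.38 on the arrays labelled parental and 4.12 to 4.41 on the evolved arrays, so that the groups overlapped; its difference of -0.02 was smaller than the pooled SD between arrays of a group, 0.083, and its sign turned, to 0.093, without replicate 2 of the arrays labelled parental. By strain that difference was -0.06 in strain 1, -0.13 in strain 2 and 0.13 in strain 3, and the arrays of strains 2 and 3 did not overlap. The ratios are given as a description, with no p. Probe sets of 1 transcript can shift unequally too: those of TDH1 rose by 1.39 at the 5' end and 0.66 at the 3' end (log2, evolved minus parental). The part of probe set position, RNA quality or a place high in the range of the arrays in these ratios was not tested.

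**Figure D2:**
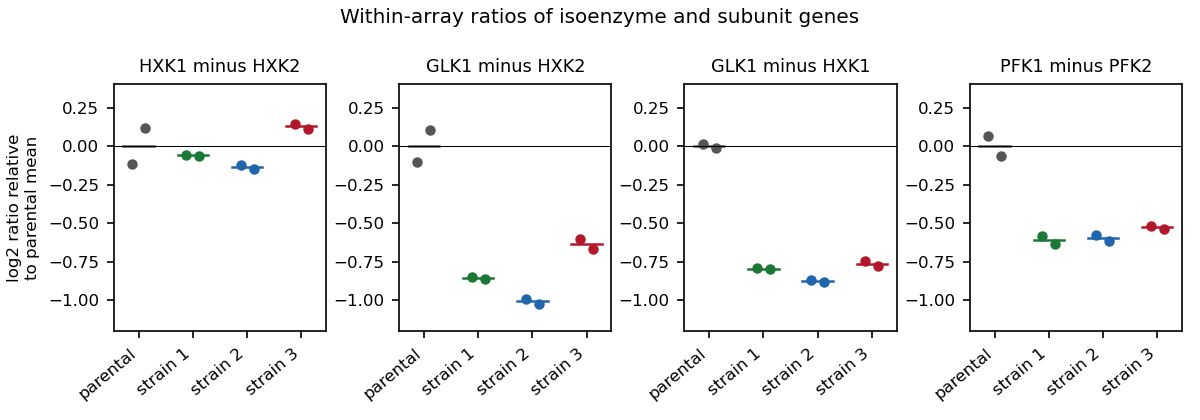
Within-array log2 ratios of the hexose kinase and phosphofructokinase genes, each relative to its mean on the arrays labelled parental (0 on the vertical axis); points are arrays and lines group means. The ratios of GLK1 to either hexokinase and of PFK1 to PFK2 lie below 0 on all 6 evolved arrays, and HXK1 minus HXK2 scatters around 0.

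PGI1, glucose phosphate isomerase, joins the hexose kinases to phosphofructokinase and had the largest rise of the 8 genes. It stood at 10.74 on both arrays labelled parental, at 12.09 and 12.13 in strain 1, at 12.49 and 12.46 in strain 2, and at 12.51 and 12.53 in strain 3. No group overlapped another. The mean rise was 1.63 ± 0.02 (log2, SE), or 3.09-fold, with an adjusted p of 8.75e-09 (limma); 3.56% of all genes had a larger difference. By strain the rise was 2.59-fold in strain 1, 3.33-fold in strain 2 and 3.42-fold in strain 3.

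The subunit genes of phosphofructokinase, the main control point of the pathway, both rose, with unequal shifts in signal. PFK1 stood at 11.08 and 10.93 on the arrays labelled parental, at 11.22 and 11.16 in strain 1, at 11.60 and 11.62 in strain 2, and at 11.64 and 11.67 in strain 3. In strain 1 it was higher than on the arrays labelled parental by 0.18 ± 0.05 (log2, SE; adjusted p = 0.0137, limma), with a range from 0.11, without replicate 2 of the arrays labelled parental, to 0.26, without replicate 1 of them, when 1 array was left out. That call was lost at adjusted p = 0.0796 without replicate 1 of strain 1, and at adjusted p = 0.0526 when only these 2 groups entered the fit. In strains 2 and 3 the rise of PFK1 was 0.60 ± 0.05 and 0.65 ± 0.05. PFK2 stood at 10.36 and 10.34 on the arrays labelled parental, at 11.15 and 11.14 in strain 1, at 11.52 and 11.58 in strain 2, and at 11.51 and 11.55 in strain 3. All evolved arrays were thus well above, and the mean rise was 1.06 ± 0.03 (log2, SE), or 2.08-fold (adjusted p = 5.86e-08, limma), where that of PFK1 was 0.48 ± 0.04, or 1.39-fold (adjusted p = 3.01e-05). The within-array ratio of PFK1 to PFK2 fell from 0.72 and 0.59 on the arrays labelled parental to values between 0.02 and 0.14 on the evolved arrays. Its difference was similar in the strains, at -0.61 in strain 1, -0.59 in strain 2 and -0.53 in strain 3, although the level of PFK1 itself was not.

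FBA1, the aldolase that cleaves fructose bisphosphate, stood at 13.45 and 13.39 on the arrays labelled parental, at 13.75 and 13.81 in strain 1, at 13.95 on both arrays of strain 2, and at 13.87 and 13.89 in strain 3. TPI1, which interconverts the triose phosphates, stood at 13.46 and 13.40 on the arrays labelled parental and between 13.98 and 14.03 on the 6 evolved arrays. The evolved arrays of TPI1 spanned only 0.0449, the narrowest range of the 8 genes. FBA1 rose by 0.45 ± 0.03 (log2, SE), or 1.36-fold (adjusted p = 5.43e-06, limma), and TPI1 by 0.58 ± 0.03, or 1.5-fold (adjusted p = 7.11e-07). These genes, HXK1 and GLK1 lay high in the range of the arrays, where the highest yeast gene reached 14.76 to 14.83 and 33 to 42 genes exceeded 14 on an array; whether rises there were understated was not tested.

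RNA quality controls moved with the same comparison. Of 7 control transcripts with probe sets at either end, 5 had a larger excess of 3' over 5' signal on the arrays labelled parental and 2 on the evolved arrays; the median shift in this excess was -0.26 on the log2 scale (evolved minus labelled parental). One of these transcripts, TDH1, belongs to glycolysis, and its rise depended on the probe set: 1.39 at the 5' end, 1.48 in the middle and 0.66 at the 3' end (log2, evolved minus parental), against 0.73 for the probe set used for the gene. The part of RNA quality or of the position of a probe set in the rises of the 8 genes, or in their ratios, was not tested.

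**Figure D3:**
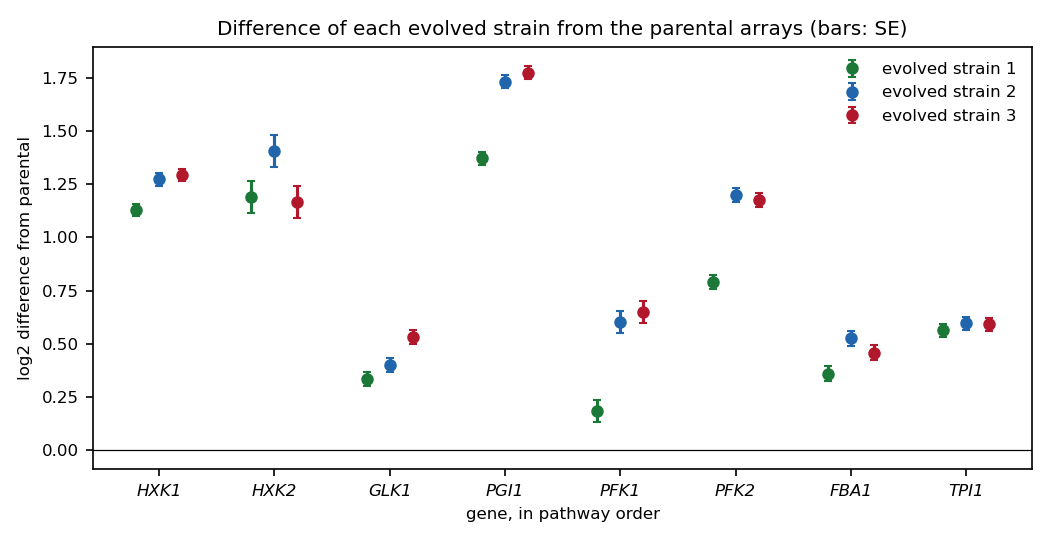
Log2 difference of each evolved strain from the arrays labelled parental (vertical axis, 0 is no difference) for the 8 genes in pathway order; bars are SE from limma, 2 arrays against 2. All 24 points lie above 0, and strain 1 has the lowest point for every gene except HXK2, from 0.18 for PFK1 to 1.37 for PGI1.

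The evolved strains were compared with each other directly, without the arrays labelled parental as a baseline. Strain 1 had the lowest mean of the evolved strains for 7 of the 8 genes, all but HXK2. Over all genes tested, the median log2 difference from strain 1 was 0.038 in strain 2 and in strain 3. HXK1, PGI1, PFK1, PFK2 and FBA1, 5 of 8, were called lower in strain 1 than in both other strains, as were 21.4% of all genes. With arrays centred on their median HXK1 and FBA1 dropped out, which left 3 of 8 against 13.2% of all genes, and FBA1 also dropped out with the replicate block. The largest of these differences were in the middle of the pathway: PFK1 was higher by 0.42 ± 0.05 in strain 2 and by 0.47 ± 0.05 in strain 3 (log2, SE; adjusted p = 0.00102 and 0.000709, limma), PFK2 by 0.41 ± 0.03 and 0.38 ± 0.03 (adjusted p = 0.000329 and 0.000362), and PGI1 by 0.36 ± 0.03 and 0.40 ± 0.03 (adjusted p = 0.000353 and 0.000308). HXK1 differed less, by 0.14 ± 0.03 and 0.16 ± 0.03 (adjusted p = 0.00639 and 0.0034). A moderated F test called 7 of the 8 genes for a difference of any kind among the evolved strains, and 68.9% of all genes. In total 6 of the 8 genes were called higher in strain 2 than in strain 1, against 29.8% of all genes, and 6 were called higher in strain 3 than in strain 1, against 33.1%; none of the 8 was called lower in either comparison, against 22.9% and 24.4%.

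For the other genes the strain differences were smaller and several calls were marginal. Of these genes HXK1, GLK1, FBA1 and TPI1 lay high in the range of the arrays. Whether differences between strains were understated there was not tested. FBA1 was higher than in strain 1 by 0.17 ± 0.04 in strain 2 and by 0.10 ± 0.04 in strain 3 (log2, SE; adjusted p = 0.00778 and 0.0488, limma). The latter call was lost when any 1 of the 6 evolved arrays was left out, with adjusted p up to 0.227, and the former without replicate 1 of strain 1 (adjusted p = 0.0523). HXK2 was higher in strain 2 than in strain 1 by 0.22 ± 0.07 (log2, SE; adjusted p = 0.0469, limma). That call was also lost when any 1 of the 6 evolved arrays was left out, with differences from 0.20 to 0.24. It was lost too with the replicate block, quantile normalization and array centring (adjusted p = 0.0554, 0.0646 and 0.106, limma). Strains 2 and 3 differed in 1 of the 8 genes, with 17.5% of all genes called higher in strain 3 and 14.5% lower: GLK1 was higher in strain 3 by 0.13 ± 0.03 (adjusted p = 0.0273), and without any 1 of the 4 arrays of these strains the call was lost, with adjusted p of 0.0607 to 0.147. HXK2 was lower in strain 3 than in strain 2 by 0.24 ± 0.07 and just missed the threshold (adjusted p = 0.0504). For TPI1 no pair of evolved strains was called, and the largest difference, between strains 2 and 1, was 0.03 ± 0.03.

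By group means, 7 genes thus had the same order at the lower end, with the arrays labelled parental below strain 1 and strain 1 below the others. The step above strain 1 was not called for TPI1 in either strain or for GLK1 in strain 2. These differences turned in sign with arrays centred on their median. The share of all genes with this order was not counted. HXK1, GLK1, PGI1 and PFK1 had their highest mean in strain 3 and HXK2, PFK2, FBA1 and TPI1 in strain 2. Between the top and the second position HXK2 and GLK1 were called different, by the marginal calls given above, and the other 6 genes were not.

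The rest of the pathway was followed in lists chosen by function. All 10 measured genes of lower glycolysis, which turns triose phosphate into pyruvate, were called higher, against 43.3% of all genes. Their median log2 difference was 1.23, against -0.0056 over all genes tested, and TDH2 was not analysed here. ENO2 (enolase) rose by 1.87 ± 0.06 (log2, SE), GPM2 (a minor phosphoglycerate mutase homologue) by 1.71 ± 0.03, and both genes of pyruvate kinase, PYK2 and CDC19, by 1.56 ± 0.03, with adjusted p between 1.09e-08 and 1.15e-07 (limma). The lists share all arrays, and no test of one list against the other was made.

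Of 4 genes that set the level of fructose bisphosphates, 3 were called lower in the mean of the evolved strains, against 43.4% of all genes, and none was called higher. FBP1, the gluconeogenic fructose bisphosphatase that opposes phosphofructokinase, fell by 2.01 on the log2 scale, or 4.02-fold. FBP26, which breaks down the activator of phosphofructokinase, fell by 1.05, or 2.07-fold, and PFK27, which makes that activator, fell by 0.46. PFK26, the other gene for its synthesis, differed by -0.07 ± 0.03 and was not called (adjusted p = 0.0784, limma), but was called with arrays centred on their median, at -0.13 (adjusted p = 0.00862). Its strains differed in sign: the difference was -0.27 in strain 1, -0.23 in strain 2 and 0.28 in strain 3 (log2; adjusted p = 0.000788, 0.00151 and 0.000636, limma). With strain as a random block the call of PFK27 was lost at adjusted p = 0.234.

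Among 10 genes of the branches that leave upper glycolysis, 8 were called higher and 2 lower (median 0.52), against 43.3% and 43.4% of all genes; in strain 3 the count called higher was 7. UGP1 (UDP-glucose synthesis) rose 3.55-fold, GPD1 (glycerol phosphate dehydrogenase) 3.33-fold, PGM2 (phosphoglucomutase) 3.25-fold and TPS2 (trehalose phosphate phosphatase) 3.17-fold. All 6 evolved arrays lay above both arrays labelled parental for 7 of the 10 genes, as for 38.2% of all genes. These 4 genes, named for their large differences, were among the 7. The 2 that were lower were GPP1 and GPP2, the glycerol phosphatases that act after GPD1.

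**Figure D4:**
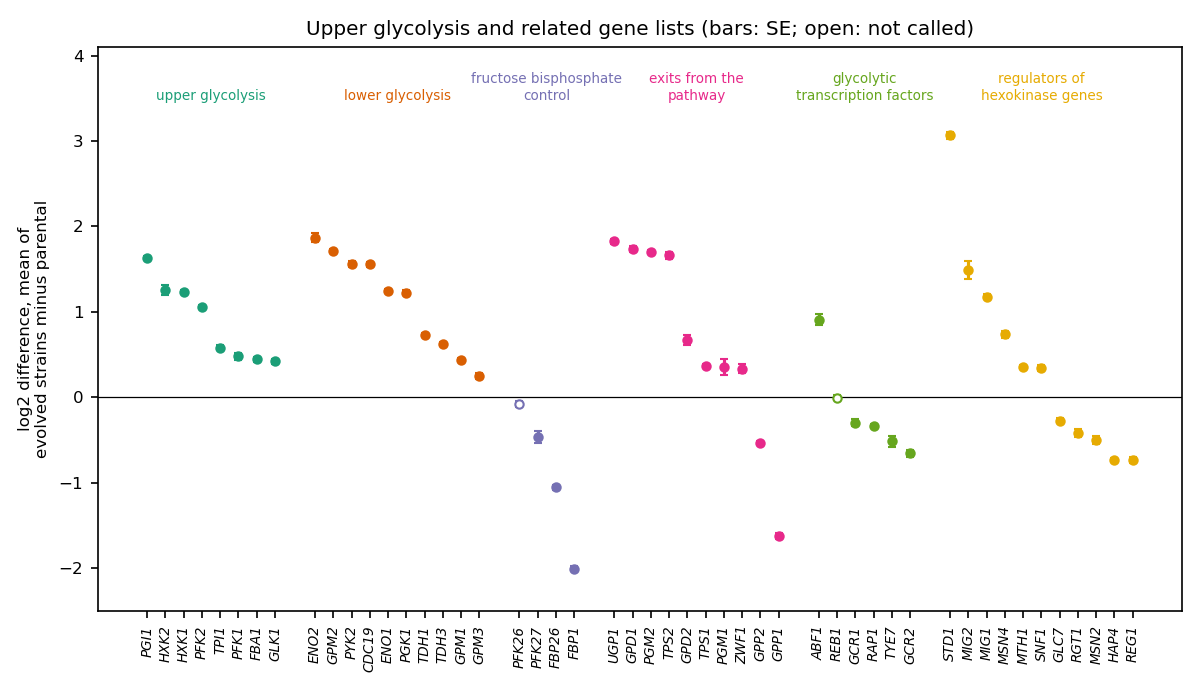
Log2 difference (mean of the evolved strains minus labelled parental, vertical axis) of the 8 genes and of the lists around them, each sorted from high to low; bars are SE from limma and open points were not called. Upper and lower glycolysis lie wholly above 0 and the 4 genes of fructose bisphosphate control lie below it.

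Genes known to regulate these enzymes were called in both directions, as were all genes, of which 43.3% were called higher and 43.4% lower. Of 6 transcription factors of glycolytic genes, 1 was called higher and 4 lower (median -0.32): ABF1, a general regulatory factor, rose by 0.91 ± 0.07 (log2, SE), while GCR2, a subunit of the glycolytic activator complex, fell by 0.66, TYE7, an activator of glycolytic genes, by 0.51, and RAP1, which binds many of their promoters, by 0.34. The calls of TYE7 and RAP1 were lost with strain as a random block (adjusted p = 0.104 and 0.0641). Of 11 genes that act on hexokinase expression through glucose repression, sensing or stress, 6 were called higher and 5 lower, shares near those of all genes. STD1, of glucose sensing, rose by 3.07 ± 0.04 (log2, SE), the glucose repressor genes MIG2 and MIG1 by 1.49 ± 0.10 and 1.18 ± 0.03, and MSN4, a stress activator, by 0.74 ± 0.04. MIG2 was near background on the arrays labelled parental, at 4.75 and 5.15 against 4.37 and 4.35. Its rise ranged from 1.28 to 1.69 when 1 array was left out. The 5 that fell, named after their values were seen, were REG1, HAP4, MSN2, RGT1 and GLC7; REG1 and GLC7, which encode subunits of the phosphatase of glucose repression, fell by 0.74 and 0.27 on the log2 scale.

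For each gene the most similar profile was sought among all 5448 other genes, by the root mean square distance between log2 levels over the 8 arrays after each gene's mean was removed. HXK1 lay closest to ABZ1, of folate precursor synthesis (distance 0.0266), and ENO1, an enolase gene of lower glycolysis (0.0333). HXK2 lay closest to FET4 (0.0417), a metal transporter gene, and YIL165C (0.0444). GLK1 was nearest to GYP5, a regulator of vesicle transport (0.0239), and SAN1, a nuclear ubiquitin ligase (0.0240). PGI1 had the most distant neighbours of the 8, HSP150 (0.0565), a cell wall glycoprotein gene, and GPD1 (0.0634). PFK1 lay nearest to the inositol lipid kinase gene LSB6 (0.0428) and the inositol phosphate kinase gene VIP1 (0.0465). PFK2 lay nearest to PAL1 (0.0335) and YIR016W (0.0439), and FBA1 to DPH5, of diphthamide synthesis (0.0238), and NUP57, a nucleoporin gene (0.0326). TPI1 had the closest neighbour of all, the inositol lipid kinase gene MSS4 (0.0137), followed by IDP1, a mitochondrial isocitrate dehydrogenase gene (0.0284). No gene of the 8 was among the 2 closest profiles of another. The profiles were not scaled, so a close gene is one with a change of like size. Whether the 8 genes vary together was not tested.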

How the data were processed

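Total RNA (100 ng) of 8 samples was labelled with biotin and hybridised to Affymetrix yeast arrays, per the labels' protocols. The deposited values are intensity values that the authors made with RMA, per the submitters' processing notes; they are on a linear scale, and the sources used here give no RMA version. Log2 was taken first. Of 10928 probe sets, 5498 had 1 S. cerevisiae gene in the platform annotation, giving 5449 genes, with the brightest probe set used for the 47 genes with several. Background was the 95th percentile of 1746 probe sets of another yeast species on each array. R64 annotation was used only for names.

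All 8 arrays entered 1 limma model with a mean for each group (limma 3.58.1, R 4.3.3, 4 residual degrees of freedom), and Benjamini-Hochberg adjustment ran over all genes within a contrast. Calls were made at an adjusted p below 0.05. The number of arrays, 2 per group, limits the precision. Alternatives were a replicate block, other normalizations, filters, probe set rules and prior settings, a pseudocount of 16, strain as a random block, fits of 2 groups, and leaving out each array. The 8 genes, the lists and the tests were chosen with earlier results of these data known. All 8 genes were named, and from each list up to 4 with the largest absolute log2 difference. A planned description of promoter motifs was not made here.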

Additional observations from a re-analysis of the deposited data

Results flagged for a closer look

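The rise over the arrays labelled parental differed in size among the 3 evolved strains for 7 of the 8 upper glycolysis genes, by a moderated F test of limma with adjustment over all genes, which called 68.9% of all genes. The adjusted p was 0.000329 for PGI1, 0.000368 for PFK2, 0.000866 for PFK1, 0.00484 for HXK1, 0.00585 for GLK1, 0.0139 for FBA1 and 0.0442 for HXK2. The range of the strain means was 0.40 for PGI1, 0.41 for PFK2, 0.47 for PFK1, 0.17 for FBA1 and 0.24 for HXK2 (log2). TPI1 was not called (adjusted p = 0.569). Fewer of the 8 genes were called with the replicate block and in some fits with 1 array left out.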

How the results depend on the processing

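All 8 genes stayed called higher in the mean of the evolved strains, in strain 2 and in strain 3 under every alternative run except strain as a random block, which left 7 in the mean; in strain 1 the count was 7 to 8 when arrays were left out and 7 in the fit of these 2 groups alone. The median difference of the 8 genes was 0.80 to 0.84 with arrays left out and 0.76 with arrays centred on their median. The count called between strains 3 and 2 was 1; it was 2, with HXK2 added, under quantile normalization, array centring, the background filter, the intensity trend, the pseudocount and the fit of these groups alone, and 0 to 2 with arrays left out. Centring turned differences that were not called: for GLK1 between strains 2 and 1 to -0.0018, and for TPI1 to -0.033 between strains 2 and 1, -0.028 between strains 3 and 1 and 0.0052 between strains 3 and 2. With arrays left out PFK2 between strains 3 and 2 ranged from -0.048 to 0.0057. The difference in the ratio of HXK1 to HXK2 turned to 0.057 under quantile normalization and to 0.0126 with the pseudocount, and ranged from -0.14 to 0.093 with arrays left out. GLK1 to HXK1 moved to -0.87 under quantile normalization. With arrays left out, GLK1 to HXK2 ranged from -0.94 to -0.73 and PFK1 to PFK2 from -0.64 to -0.51. The cause of these changes was not tested. Replicate numbers did not pair the arrays (deviations of same-numbered arrays correlated at -0.12 to 0.03), and the replicate block left 8 calls in the mean and in each strain, 5 in place of 6 between strains 2 and 1 and between strains 3 and 1, and 6 in place of 7 in the F test. HXK1 and HXK2 between strains 2 and 1 were not called with centring (adjusted p = 0.0693 and 0.106, limma). HXK2 was not called there under quantile normalization either (adjusted p = 0.0646). A lone array was assumed to vary like the other groups. For the mean contrast all groups are always in the fit.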
